A study of Mus musculus with 20 samples.

Results

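DNA damage and p53-linked cell cycle genes were followed in the hearts of male mice at 2 ages and on 3 diets. The set was chosen by name, with earlier results of these data known. It holds 9 genes: Cdkn1a, Ccng1, Gadd45a, Gadd45b, Mdm2, Trp53, Pcna, Ccnd1 and Ccnd2. All probe sets whose single gene symbol in the platform annotation was one of these names were taken. This gave 11 probe sets of 8 genes, out of 12422 probe sets that are not controls and 8251 genes with a probe set of their own. Trp53 itself was not analysed here, since no probe set carried that single symbol.

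The 20 arrays, 1 per animal, formed 4 groups of 5. Mice fed both tocopherols received 500 mg/kg each of alpha- and gamma-tocopherol, and mice fed alpha-tocopherol received 1000 mg/kg of it, in both cases with supplementation begun at 15 months and hearts taken at 30 months. Old controls were 30 months old and young controls 5 months old, both on the control diet. All were male hybrids of the B6 and C3H strains, bought young and housed singly, and the strain labels of old controls 1 and 4 lack the F1 mark that all others carry. Tocopherols are forms of vitamin E, and alpha and gamma differ by a ring methyl group. Intensities below are the authors' linear array signals, and differences are of log2(intensity + 58) ± standard error (SE), which understates the change of dim probe sets. A probe set passed the test when its adjusted p (limma, Benjamini-Hochberg over 7453 tested probe sets) was below 0.05. Of the 11 member probe sets, 10 passed the filter on dim signal and were tested, and they cover all 8 genes on the array.

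The p53 protein is a transcription factor held low by Mdm2, a ubiquitin ligase that is itself induced by p53. After DNA damage p53 raises Cdkn1a (the CDK inhibitor p21), Ccng1 (cyclin G1), Gadd45a (a stress protein that binds Pcna) and Mdm2, which together slow the cell cycle and feed back on p53. Pcna is the sliding clamp of DNA polymerases and is used in replication and in repair. Ccnd1 and Ccnd2 are D-type cyclins, which activate CDK4 and CDK6 in the first gap phase of the cycle. Heart muscle cells of adult mice rarely divide, so transcripts of these genes in whole heart can also come from fibroblasts, vessels and immune cells. In such bulk samples, fewer cells of a type and less RNA per cell cannot be told apart.

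The 250 bases before the start site are shown for Cdkn1a, the textbook p53 target, and for the 3 genes that were lower in supplemented hearts. The sequences are RefSeq's, build GRCm38.p6, written 5′ to 3′ on the gene's strand. Capitals mark matches, on both strands, to the p53 half-site, to the CCAAT box (CCAAT) and to the GC box (GGGCGG).
Cdkn1a: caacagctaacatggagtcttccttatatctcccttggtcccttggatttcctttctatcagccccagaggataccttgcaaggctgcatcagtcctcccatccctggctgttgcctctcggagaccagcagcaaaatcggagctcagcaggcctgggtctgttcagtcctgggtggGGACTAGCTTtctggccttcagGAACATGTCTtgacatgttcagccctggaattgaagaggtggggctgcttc
Ccng1: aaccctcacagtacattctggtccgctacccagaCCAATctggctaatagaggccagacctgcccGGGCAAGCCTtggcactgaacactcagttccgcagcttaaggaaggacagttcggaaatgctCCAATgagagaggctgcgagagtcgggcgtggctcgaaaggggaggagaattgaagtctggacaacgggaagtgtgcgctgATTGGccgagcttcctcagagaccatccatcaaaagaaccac
Gadd45a: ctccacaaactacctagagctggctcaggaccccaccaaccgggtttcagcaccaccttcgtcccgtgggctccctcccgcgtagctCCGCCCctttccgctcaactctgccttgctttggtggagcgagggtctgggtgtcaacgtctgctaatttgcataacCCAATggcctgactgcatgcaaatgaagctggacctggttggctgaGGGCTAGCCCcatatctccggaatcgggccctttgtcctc
Pcna: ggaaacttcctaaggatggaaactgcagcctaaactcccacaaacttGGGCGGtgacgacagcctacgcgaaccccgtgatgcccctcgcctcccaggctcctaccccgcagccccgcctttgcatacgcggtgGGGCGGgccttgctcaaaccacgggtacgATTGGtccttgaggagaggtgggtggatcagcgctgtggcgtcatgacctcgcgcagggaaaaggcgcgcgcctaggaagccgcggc

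These windows are chr17:29090729-29090978 on the plus strand for the first of 2 listed Cdkn1a starts, chr11:40755287-40755536 on the minus strand for Ccng1, chr6:67037408-67037657 on the minus strand for Gadd45a and chr2:132253181-132253430 on the minus strand for Pcna. A p53 half-site began 73 and 51 bases before the first listed start of Cdkn1a. A match also began 185 bases before the start of Ccng1 and 40 bases before that of Gadd45a, while the Pcna window held no match to it. The window of the other Cdkn1a start (chr17:29093519-29093768, plus strand, not shown) held no p53 half-site and 2 GC boxes. Of the 8 windows listed for 7 of the 9 genes, Trp53 included, 5 held a p53 half-site, against 7.13% of 32851 windows of all genes. A CCAAT box was in 6 of the 8 (33.9% of all windows) and a GC box in 5 (32.7% of all windows). The matches describe letters only, and binding was not measured.

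In hearts of old mice fed alpha-tocopherol, Ccng1, Gadd45a and Pcna fell below old controls, with levels of 0.396 to 0.584 times those of old controls on the scale used. Hearts of mice fed both tocopherols had lower Ccng1 and Gadd45a. With age alone, Ccng1 and 1 of 2 Ccnd1 probe sets rose. Neither probe set of Cdkn1a passed the test in any comparison. The 5 old controls are shared by the age comparison and by both supplement comparisons, so a rise with age and a fall with a supplement are not independent of each other. The members were chosen with earlier results of these data known, so the counts and medians below describe the set and do not test it. In alpha-tocopherol hearts 3 of 10 member probe sets were lower and 0 higher, where 12.8% of all tested probe sets were lower and 8.94% higher. With both tocopherols 2 of 10 were lower and 0 higher, where 3.76% of all were lower and 2.67% higher. With age 2 of 10 were higher and 0 lower, where 2.74% of all were higher and 2.2% lower. Between the supplements 1 of 10 was higher with both tocopherols and 0 lower, where 0.309% of all were higher and 0.255% lower. Hearts of the groups did not overlap, with the supplemented ones lower, in 3 of 10 member probe sets with alpha-tocopherol (9.39% of all) and in 3 of 10 with both tocopherols (4.94% of all). All old controls lay above all young ones in 3 of 10 (4.23% of all), and between the supplements 0 of 10 were without overlap in either direction (3.9% of all). The median difference of the 10 was -0.13 with alpha-tocopherol, -0.39 with both tocopherols, 0.38 with age and 0.07 between the supplements, against -0.02, -0.01, 0.01 and 0.01 over all tested probe sets.

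Precision is set by having 5 arrays a group, and 2 array measures moved with the supplement groups. The mean log2 signal of the bacterial hybridization controls was 0.85 higher in alpha-tocopherol than in old control arrays, and that of 18S ribosomal RNA was 1.66 higher. In both, all 5 alpha-tocopherol arrays lay above all 5 old controls (two-sided exact permutation, p = 0.0079, the lowest that 5 against 5 can give, and 0.032 after adjustment over 16 such tests). With both tocopherols these differences from old controls were 0.28 and 0.52 (exact permutation p = 0.16 and 0.26, adjusted 0.34 and 0.46). The alpha-tocopherol arrays also lay above all arrays with both tocopherols in both levels. Each level was added to the model as a covariate, with values given beside most member probe sets below. None are given for the named pathway genes. Over all probe sets the 1619 calls with alpha-tocopherol became 144 with the hybridization covariate and 142 with the 18S covariate. Where a level separates the groups compared, such a fit cannot tell the level and the diet apart. A call lost or kept there does not settle the part of the level in the member results. The Gapdh 3′ minus 5′ difference, a sign of RNA quality, was 1.21 (log2) in old control 3 and -0.17 to 0.19 in the other 19 arrays. It also differed by -0.15 between both tocopherols and alpha-tocopherol (exact permutation p = 0.016, adjusted 0.051). Its part in the member results was not tested as a covariate, and values without old control 3 are given where they change a call. Markers of heart muscle cells were present in every group: 10 such genes summed to 652240 to 895790 with both tocopherols, 870960 to 1055800 with alpha-tocopherol, 748840 to 885900 in old controls and 720850 to 923780 in young controls. With alpha-tocopherol 4 of 5 sums lay above all controls. The 14 lymphocyte markers on the array summed to 45157 in young control 3, against 5881 to 6938 in the other 4 young controls.

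**Figure D1:**
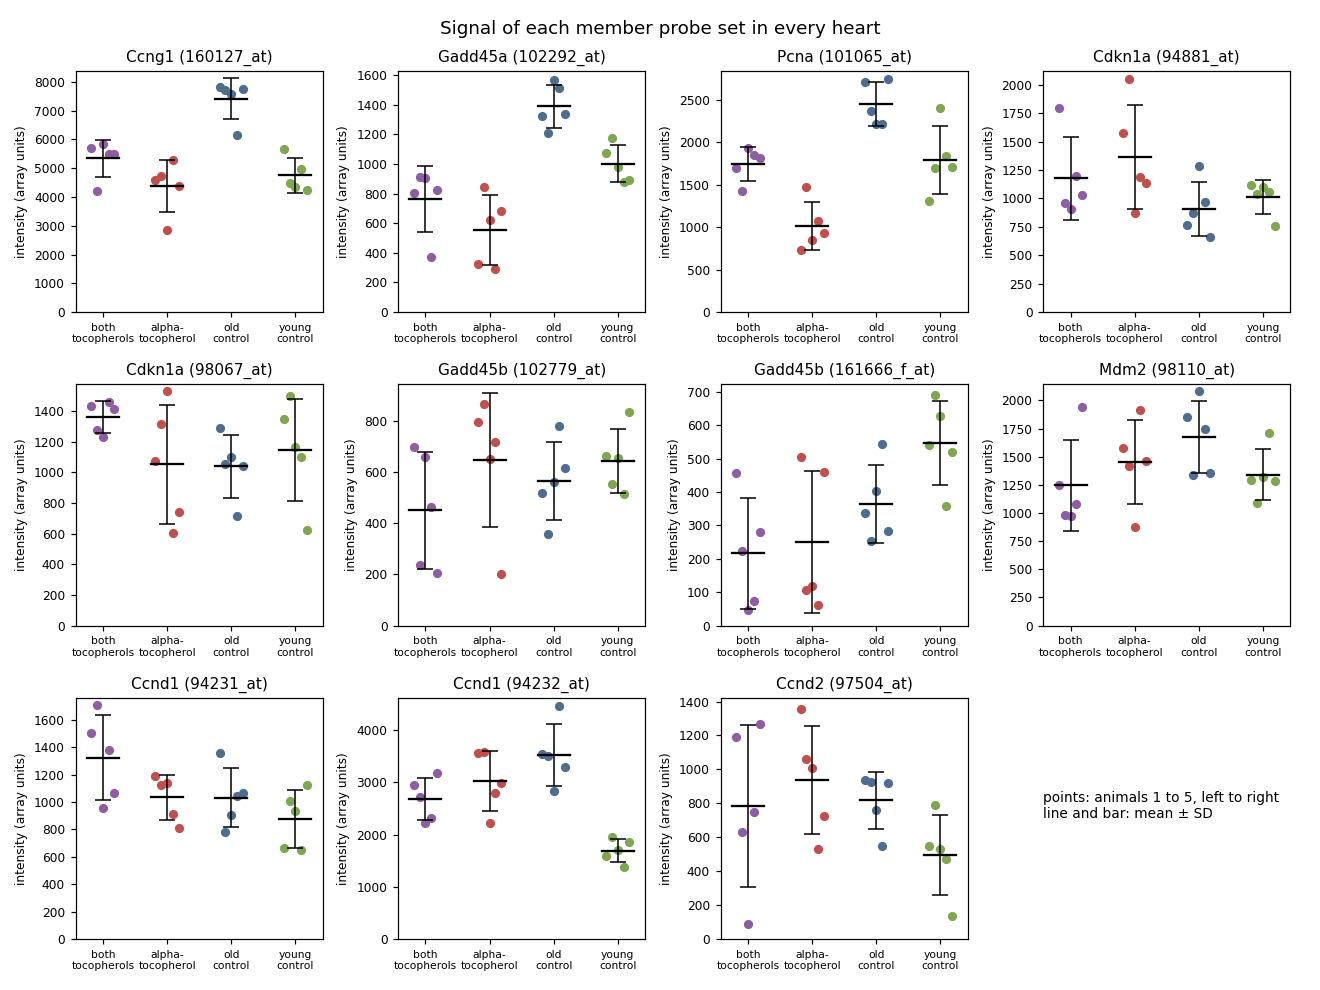
Intensity (array units, linear axis from 0) of each of the 11 member probe sets in each heart, with points for animals 1 to 5 and lines and bars for the mean ± SD of 5 animals. For Ccng1, Gadd45a and Pcna all supplemented hearts of both groups lie below all old controls. In the Cdkn1a, Gadd45b, Mdm2, Ccnd1 and Ccnd2 panels the supplemented groups overlap with old controls.

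Ccng1, which p53 induces and whose product, cyclin G1, recruits a phosphatase acting on Mdm2, was the only member that passed the test both with age and with each supplement. Its intensities were 5698.4, 4199.6, 5831.2, 5489.5 and 5493.0 with both tocopherols, and 4606.4, 4722.8, 2864.8, 5272.6 and 4376.9 with alpha-tocopherol. Old controls had 7839.4, 7731.1, 7565.4, 6146.8 and 7769.8, and young controls 5679.1, 4499.9, 4343.9, 4978.8 and 4232.4. All old controls lay above every heart of the other 3 groups, whose ranges overlap. Ccng1 fell by 0.78 ± 0.14 on the log2 scale with alpha-tocopherol against old controls (adjusted p = 4e-04, limma). It fell by 0.47 ± 0.14 with both tocopherols (adjusted p = 0.041) and rose by 0.64 ± 0.14 in old against young controls (adjusted p = 0.0063).

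The rise of Ccng1 with age held whichever animal was left out (0.60 to 0.71, adjusted p of 0.0058 to 0.021). With alpha-tocopherol the fall held without any 1 animal (-0.85 to -0.63), but with the hybridization level as a covariate it was -0.73 ± 0.24 (adjusted p = 0.11), and with the 18S level -0.77 ± 0.22 (adjusted p = 0.068). With both tocopherols the call was lost on leaving out any of old controls 1, 2, 3 and 5 or animals 1, 2, 4 and 5 of the supplemented group (-0.50 to -0.39, adjusted p of 0.057 to 0.12), old control 3 being the array with the high Gapdh difference. The smallest of these differences came without animal 2 of the group fed both tocopherols. Without old control 3 the difference was -0.46 ± 0.15 (adjusted p = 0.067, limma). With all animals, the difference with both tocopherols was -0.46 ± 0.15 with the hybridization covariate (adjusted p = 0.10) and with the 18S covariate -0.47 ± 0.15 (adjusted p = 0.071).

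Gadd45a, which encodes a stress-induced protein of growth arrest and DNA repair, was lower with each supplement. Its intensities were 805.4, 915.0, 904.9, 369.7 and 822.6 with both tocopherols and 326.5, 843.4, 623.8, 288.2 and 681.9 with alpha-tocopherol. They were 1321.7, 1206.5, 1565.0, 1509.6 and 1337.4 in old controls and 1071.7, 1175.3, 980.9, 881.0 and 894.7 in young controls. Each supplemented heart lay below each old control, and each old control above each young control. The gene fell by 1.34 ± 0.25 (log2) with alpha-tocopherol (adjusted p = 0.00062, limma) and by 0.87 ± 0.25 with both tocopherols (adjusted p = 0.037). Old against young controls differed by 0.45 ± 0.25, which did not pass the test although the groups do not overlap (adjusted p = 0.35). This SE is drawn from all 4 groups. The log2 SD was 0.15 in old and 0.17 in young controls, against 0.61 with alpha-tocopherol and 0.50 with both tocopherols. With only the 2 groups compared, the age difference was 0.45 ± 0.13 and again did not pass (adjusted p = 0.062, limma).

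With the hybridization level as a covariate the Gadd45a difference with alpha-tocopherol was -1.03 ± 0.43 (adjusted p = 0.21), and with the 18S level it was -1.98 ± 0.35 and stayed called (adjusted p = 0.0078). With both tocopherols the call was lost on leaving out any 1 old control, or animal 1 or 4 of the supplemented group (-0.92 to -0.65, adjusted p of 0.052 to 0.096). Animal 4 was the lowest of its group, at 369.7. Leaving it out gave the smallest difference, -0.65 ± 0.22. Without old control 3, the array with the high Gapdh difference, the value was -0.83 ± 0.27 (adjusted p = 0.0745, limma). With all animals and the hybridization covariate the difference with both tocopherols was -0.77 ± 0.27 (adjusted p = 0.12), and with the 18S covariate -1.07 ± 0.24 (adjusted p = 0.014).

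Gadd45b, the second family member, which responds to cytokines as well as stress, passed the test in no comparison. Its tested probe set read 694.8, 236.7, 656.1, 461.9 and 203.7 with both tocopherols and 792.3, 865.2, 650.9, 717.5 and 202.0 with alpha-tocopherol. Old controls had 518.5, 356.2, 559.7, 777.2 and 613.3, and young controls 662.0, 552.5, 651.9, 512.6 and 834.9. All groups overlap. The difference from old controls was 0.09 ± 0.33 with alpha-tocopherol (95% interval -0.61 to 0.78) and -0.39 ± 0.33 with both tocopherols (-1.08 to 0.31). Old against young controls differed by -0.19 ± 0.33 (-0.88 to 0.51). With alpha-tocopherol the value was -0.86 ± 0.54 with the hybridization covariate and 0.89 ± 0.48 with the 18S covariate, so its sign was not settled. The other Gadd45b probe set was left out of the test by the filter on dim signal, and ranged from 47.4 to 505.0 in supplemented hearts, from 254.2 to 545.3 in old controls and from 357.5 to 690.2 in young controls. Over the 20 arrays the Gadd45b probe sets had a correlation of -0.0081.

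Pcna, the polymerase clamp, had intensities of 1700.1, 1427.2, 1937.5, 1848.9 and 1812.0 with both tocopherols and 737.4, 1474.2, 854.3, 1076.7 and 931.7 with alpha-tocopherol. Old controls had 2717.8, 2375.8, 2218.1, 2219.7 and 2744.3, and young controls 1309.5, 1695.5, 2411.3, 1845.0 and 1707.4. All supplemented hearts of both groups lay below all old controls, and 4 of 5 hearts with both tocopherols lay above all hearts with alpha-tocopherol. Pcna fell by 1.26 ± 0.16 (log2) with alpha-tocopherol (adjusted p = 2.1e-05, limma). It differed by -0.48 ± 0.16 with both tocopherols and did not pass (adjusted p = 0.079), and by 0.46 ± 0.16 in old against young controls (adjusted p = 0.11). The difference with both tocopherols passed with array weights (-0.52 ± 0.14, adjusted p = 0.021) and with only the 2 groups compared (-0.48 ± 0.12, adjusted p = 0.029). These were 2 of 14 alternatives, and on leaving out each of 10 animals it passed in 0.

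The supplements differ in gamma-tocopherol and also in the dose of alpha-tocopherol. Pcna was the only member that passed the test between them, 0.78 ± 0.16 higher with both tocopherols than with alpha-tocopherol alone (adjusted p = 0.041, limma). In this comparison the log2 level of the hybridization controls differed by -0.57 and that of 18S by -1.14. With them as covariates the Pcna difference was 0.60 ± 0.22 (adjusted p = 0.33) and 0.68 ± 0.21 (adjusted p = 0.48). The call was lost on leaving out any of alpha-tocopherol animals 1, 3, 4 and 5 or animals 1, 3, 4 and 5 of the other group (0.68 to 0.81, adjusted p of 0.052 to 0.105). It was also lost without old controls 1 and 4, which enter the shared estimate of the spread (0.78 ± 0.17, adjusted p = 0.069). Against old controls, the fall of Pcna with alpha-tocopherol was -0.98 ± 0.28 with the hybridization covariate (adjusted p = 0.066) and -1.11 ± 0.26 with the 18S covariate, which kept the call (adjusted p = 0.027). Of the other called genes, Ccng1 differed between the supplements by 0.31 ± 0.14 (95% interval 0.02 to 0.59) and Gadd45a by 0.47 ± 0.25 (-0.05 to 0.98), neither passing the test (adjusted p = 0.28 and 0.36, limma).

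Young control 3 had the highest Pcna of its group (2411.3) and the summed lymphocyte markers given above. Its 10 proliferating-cell markers summed to 12869, against 6429 to 7864 in the other young controls. Without it, the age difference of Pcna was 0.57 ± 0.16 (adjusted p = 0.040, limma). Leaving out each of 10 animals in turn gave 0.36 to 0.57 (adjusted p of 0.040 to 0.28), and only this 1 passed the test. Of 14 other alternatives 2 passed. They were array weights (0.55 ± 0.14, adjusted p = 0.014) and leaving out both young control 3 and old control 3 (0.61 ± 0.17, adjusted p = 0.045). Proliferating-cell markers were called in 0 of 5 tested cases in each comparison (1, 1, 0 and 0 at an unadjusted p below 0.05 for age, alpha-tocopherol, both tocopherols and the supplements against each other). Their summed intensity spanned 6179 to 7650 with both tocopherols, 6363 to 7952 with alpha-tocopherol and 5160 to 7061 in old controls.

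**Figure D2:**
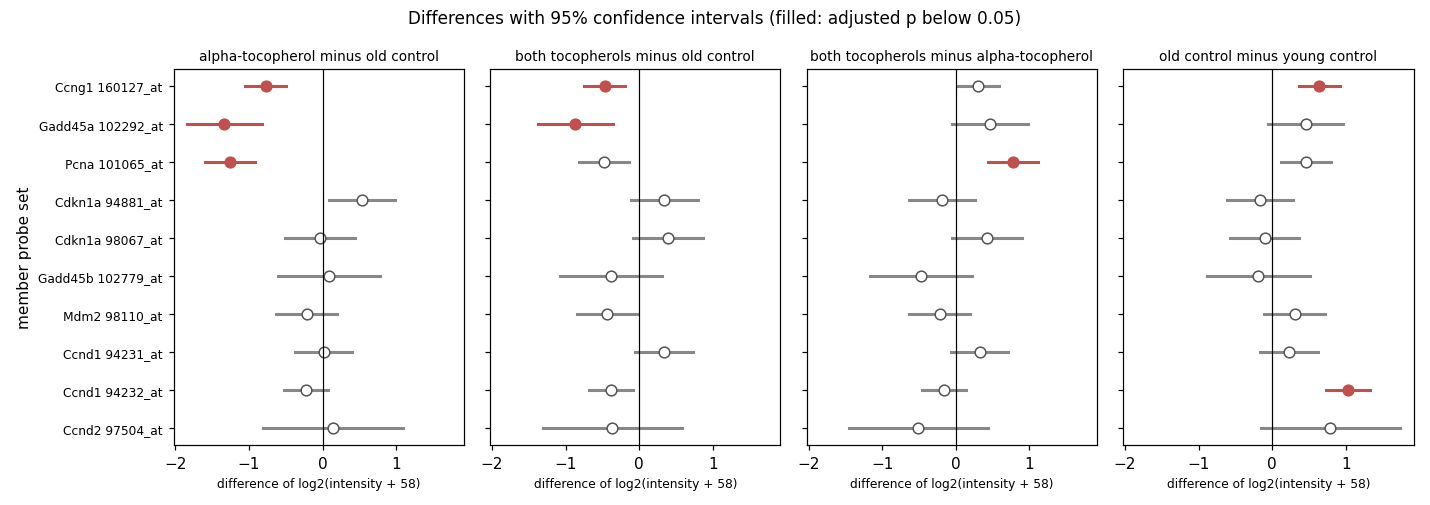
Differences of log2(intensity + 58) with 95% confidence intervals for the 10 tested member probe sets in 4 comparisons (5 animals per group), filled where the adjusted p was below 0.05. Ccng1 and Gadd45a are filled in both supplement comparisons, Pcna with alpha-tocopherol and between supplements, and Ccng1 and the Ccnd1 probe set 94232_at with age.

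Cdkn1a, which encodes the CDK inhibitor p21 and is induced by p53, was measured by a pair of probe sets with a correlation of 0.20 over 20 arrays. Probe set 94881_at read 1794.1, 956.0, 904.0, 1201.8 and 1029.0 with both tocopherols and 1575.8, 2054.8, 869.3, 1185.0 and 1137.4 with alpha-tocopherol. It read 767.7, 871.7, 1282.7, 967.2 and 657.2 in old controls and 1118.3, 1039.7, 1096.8, 1052.8 and 758.9 in young controls. The groups overlap, and 2 alpha-tocopherol hearts lay above all old controls. Its difference from old controls was 0.53 ± 0.22 with alpha-tocopherol (adjusted p = 0.081, limma) and 0.34 ± 0.22 with both tocopherols (adjusted p = 0.36). Leaving out each of 10 animals in turn gave alpha-tocopherol differences of 0.37 to 0.67 (adjusted p of 0.037 to 0.22), of which 2 passed the test. The alpha-tocopherol difference passed without old control 3 (0.66 ± 0.22, adjusted p = 0.0385) and without alpha-tocopherol animal 3 (0.67 ± 0.22, adjusted p = 0.0372). It also passed with array weights (0.64, adjusted p = 0.0183) and without young control 3 and old control 3 (0.66, adjusted p = 0.0404). With the hybridization covariate it was 0.54 ± 0.39 and with the 18S covariate 0.29 ± 0.34.

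The second Cdkn1a probe set, 98067_at, ranged from 1229.5 to 1457.9 with both tocopherols, from 602.2 to 1528.9 with alpha-tocopherol, from 714.8 to 1287.8 in old controls and from 623.4 to 1496.5 in young controls. Its differences from old controls were 0.39 ± 0.23 with both tocopherols and -0.03 ± 0.23 with alpha-tocopherol (adjusted p = 0.32 and 0.93, limma). Old against young controls differed by -0.17 ± 0.22 and -0.11 ± 0.23 in the pair of probe sets (95% intervals -0.62 to 0.28 and -0.58 to 0.37).

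Mdm2, which marks p53 for degradation, read 1248.1, 983.9, 977.6, 1078.7 and 1945.1 with both tocopherols and 1581.2, 1421.3, 879.6, 1917.3 and 1465.0 with alpha-tocopherol. Old controls had 1854.4, 1339.6, 2081.6, 1746.5 and 1354.3, and young controls 1297.1, 1087.5, 1321.8, 1713.6 and 1286.2. With both tocopherols 4 of 5 hearts lay below all old controls, and animal 5 lay within their range. The difference was -0.44 ± 0.20 with both tocopherols (adjusted p = 0.19, limma), -0.22 ± 0.20 with alpha-tocopherol (adjusted p = 0.45) and 0.30 ± 0.20 with age (adjusted p = 0.47). The alpha-tocopherol value was 0.22 ± 0.33 with the hybridization covariate and -0.51 ± 0.31 with the 18S covariate.

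Among the D-type cyclins, the Ccnd1 probe set 94232_at had the largest age difference of the 10 tested member probe sets. It read 2942.1, 2728.7, 2216.7, 2324.0 and 3177.2 with both tocopherols and 3565.5, 3585.1, 2214.0, 2796.8 and 2982.9 with alpha-tocopherol. Old controls had 3542.4, 3503.4, 2829.4, 4466.2 and 3289.6, and young controls 1594.7, 1949.9, 1696.0, 1376.7 and 1852.6. All old hearts, supplemented or not, lay above all young hearts. The rise with age was 1.03 ± 0.14 (adjusted p = 0.00012, limma), a level 2.04 times that of young controls. It held without any 1 animal (0.94 to 1.10). The differences from old controls were -0.39 ± 0.14 with both tocopherols (adjusted p = 0.11) and -0.22 ± 0.14 with alpha-tocopherol (adjusted p = 0.28). The alpha-tocopherol value was 0.11 ± 0.24 with the hybridization covariate and -0.38 ± 0.23 with the 18S covariate, while the age rise was 0.99 ± 0.14 and 1.01 ± 0.15.

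The other Ccnd1 probe set, 94231_at, did not show this age difference. It ranged from 954.6 to 1708.0 with both tocopherols, from 811.1 to 1186.7 with alpha-tocopherol, from 779.0 to 1359.0 in old controls and from 647.3 to 1126.1 in young controls. Old against young controls differed by 0.23 ± 0.19 (95% interval -0.16 to 0.62, adjusted p = 0.60, limma). With both tocopherols it differed from old controls by 0.34 ± 0.19, in the opposite direction to the first probe set. The rise of Ccnd1 with age therefore rests on 1 of its probe sets.

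Ccnd2 had the largest SE of the 10 tested member probe sets. It read 1189.3, 631.6, 87.7, 747.3 and 1269.5 with both tocopherols and 1358.6, 1058.6, 1010.0, 528.7 and 726.3 with alpha-tocopherol, against 940.0, 923.2, 763.1, 545.7 and 920.0 in old controls and 547.5, 788.8, 528.0, 471.0 and 135.7 in young controls. Animal 3 with both tocopherols and young control 5 were far below the rest of their groups. The age difference was 0.79 ± 0.46 (95% interval -0.16 to 1.74, adjusted p = 0.40, limma). The differences from old controls were -0.37 ± 0.46 with both tocopherols and 0.14 ± 0.46 with alpha-tocopherol. Without animal 3 of the mice fed both tocopherols, their difference from old controls was 0.18 ± 0.34, and without young control 5 the age difference was 0.45 ± 0.44. The alpha-tocopherol difference was 0.97 ± 0.78 with the hybridization covariate and -0.86 ± 0.68 with the 18S covariate.

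**Figure D3:**
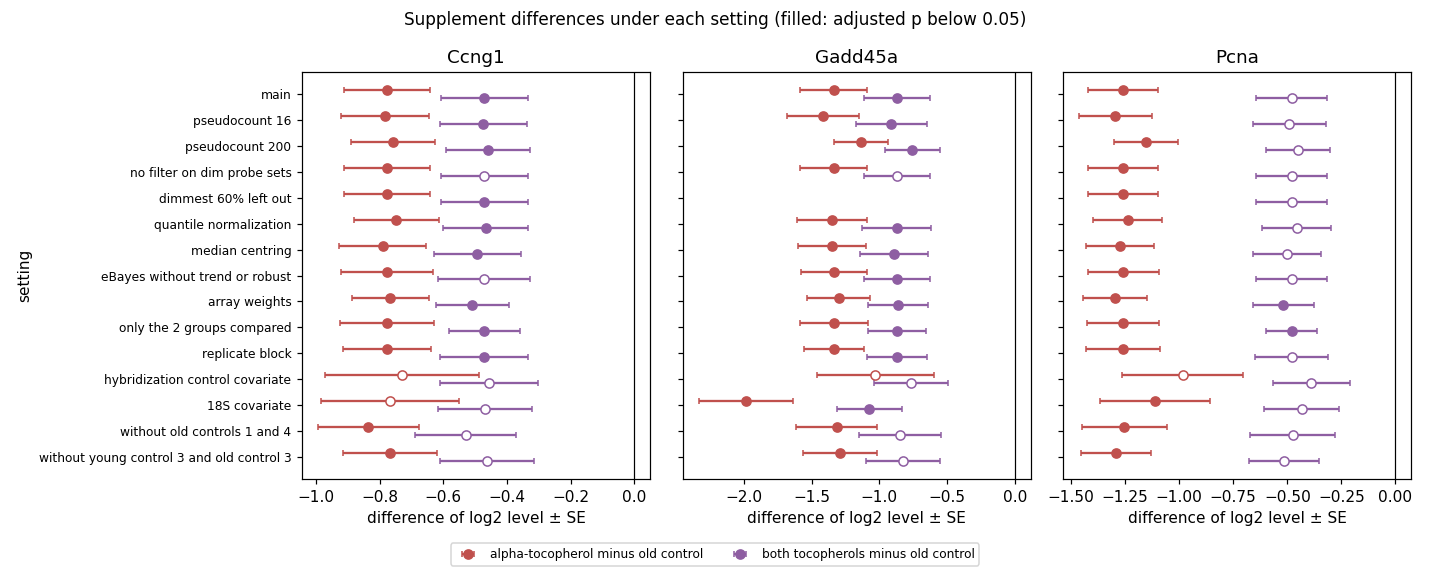
Differences from old controls (log2 level ± SE) of Ccng1, Gadd45a and Pcna under the reported setting and 14 alternatives, for alpha-tocopherol and for both tocopherols, filled where the adjusted p was below 0.05. The sign is negative under each setting shown. Gadd45a was not tested with the dimmest 60% left out, and with the hybridization covariate no difference is filled.

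The members were also compared with each other from animal to animal. Over 28 pairs of the 8 genes, each at its brightest tested probe set, the correlation over 20 arrays with group means removed had a median of 0.04 and a range of -0.32 to 0.61. Pcna had a correlation of 0.70 with Ccng1 and 0.71 with Gadd45a over all 20 arrays, and of 0.22 and 0.12 with group means removed. The highest value within groups was that of Cdkn1a with Ccnd2 (0.61), and the next was that of Ccng1 with Mdm2 (0.52). These values are descriptions, since the arrays share groups and the array measures above.

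Likeness to other genes was described by the same correlation over all 20 arrays. The genes most like Pcna were Rbm39 (0.93) and Hnrnpll (0.90), those most like Ccng1 were Vdac2 (0.91) and Atxn2 (0.89), those most like Gadd45a were Ube2s (0.85) and Pld4 (0.82), and those most like Ccnd1 were Slc12a7 (0.82) and Alas1 (0.79).

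Other genes of the pathway were taken from 5 lists that exclude the members and were also chosen with earlier results of these data known. With alpha-tocopherol, 22.3% of 5663 tested genes were called, 8.67% higher and 13.7% lower, with a median difference of -0.04. Of 16 tested p53 targets 1 was higher and 3 lower (median -0.05). Among these were Ei24, an endoplasmic reticulum protein induced by p53 (-0.72 ± 0.11), and Sesn1, a stress-induced inhibitor of growth signalling (-0.73 ± 0.14), and in both the groups do not overlap. Rrm2b, the p53-induced ribonucleotide reductase subunit, was higher by 0.65 ± 0.21. Of 10 tested regulators of p53, 0 were called (limma; 1 at an unadjusted p below 0.05). In all, 25% of the p53 targets were called, near the share over all genes.

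In alpha-tocopherol hearts 2 of 22 cyclins, CDKs and their regulators were higher and 4 lower (median -0.11). The G1/S cyclin Ccne1 was higher by 0.91 ± 0.29 and the CDK phosphatase Cdc25a by 0.41 ± 0.14, while the retinoblastoma relative Rbl2 (-0.62 ± 0.20) and the kinase Cdk5 (-0.55 ± 0.18) were lower. Of 23 replication genes 2 were lower and 0 higher (median -0.19): Rpa3, a subunit of the single-strand binding complex (-1.23 ± 0.23), and Mcm4, a helicase subunit (-1.14 ± 0.41). Of 25 repair genes 2 were higher and 1 lower (median -0.01). The oxidized-guanine glycosylase Ogg1 rose by 0.88 ± 0.24 and the checkpoint clamp subunit Rad1 fell by 1.20 ± 0.35 on the log2 scale. The uracil glycosylase Ung rose by 0.65 ± 0.11 at its brightest probe set, and a second one went the opposite way.

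**Figure D4:**
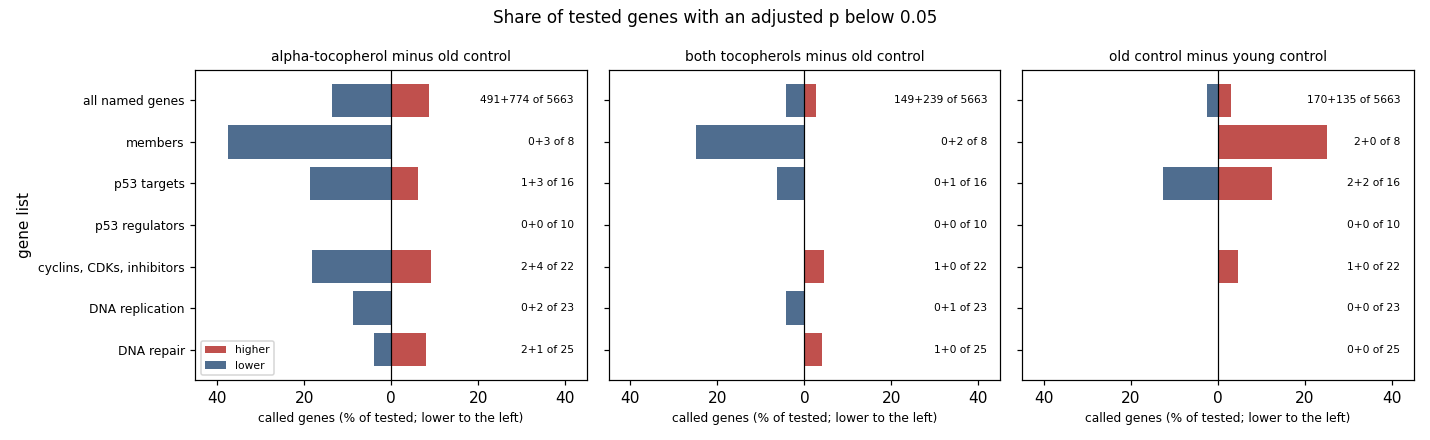
Percent of tested genes called higher (right) and lower (left) in all named genes, the members and 5 pathway lists, for 3 comparisons, with the numbers higher + lower of tested at the right. With alpha-tocopherol 13.7% of all genes were lower, against 3 of 8 member genes and 3 of 16 p53 targets. The members and lists were chosen with earlier results of these data known.

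With both tocopherols, 6.85% of the 5663 genes were called against old controls, 2.63% higher and 4.22% lower. Of the p53 targets, Ei24 was again lower (-0.50 ± 0.11, adjusted p = 0.0072, limma) and 0 of 16 were higher. In the other lists Ccne1 (0.99 ± 0.29) and Ung (0.36 ± 0.11, with another probe set of opposite sign) were higher, and Pola2, a subunit of the primase complex, was lower (-1.03 ± 0.24, also with another probe set of opposite sign). They were the only calls among 22 cyclins, CDKs and their regulators (4.55%), 25 repair genes (4.00%) and 23 replication genes (4.35%). With 6.25% of the p53 targets called, no list exceeded the 6.85% over all genes. Of 10 regulators 0 were called (limma; 0 at an unadjusted p below 0.05).

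With age, 5.39% of the 5663 genes were called. Of 16 p53 targets 2 were higher and 2 lower (median -0.12, against 0.02 over all genes). Plk2, a polo-like kinase (0.53 ± 0.13), and Ei24 (0.39 ± 0.11) rose, and Sesn1 (-0.61 ± 0.14) and the antiproliferative gene Btg2 (-0.64 ± 0.18) fell in old against young controls. The E2F partner Tfdp1 rose by 0.71 ± 0.19, the only call among 22 cyclins, CDKs and their regulators (4.55%, below the share over all genes). No gene was called among 23 replication, 25 repair and 10 regulator genes (limma; 1, 3 and 0 at an unadjusted p below 0.05). Between the supplements 0 genes of the 5 lists were called, where 0.459% of all named genes were.

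Beside the lower Ccng1, Gadd45a and Pcna, some cell type markers were called too. With alpha-tocopherol 13.7% of all named genes were lower and 8.67% higher. Of fibroblast markers 6 of 11 were lower and 1 higher, and of macrophage markers 6 of 10 were lower and 0 higher. Of heart muscle markers 4 of 10 were higher. Of endothelial markers 2 of 9 were lower, and this 22.2% called is near the 22.3% called over all named genes. Of 5 tested liver markers 3 were lower, and of 5 tested lymphocyte markers 0 were called (limma; 1 at an unadjusted p below 0.05). With both tocopherols 4.22% of all named genes were lower and 2.63% higher. Of fibroblast markers 4 of 11 were lower and 1 higher, while 1 of 10 macrophage markers and 3 of 9 endothelial markers were lower. Of liver markers 2 of 5 were lower, and 1 of 5 lymphocyte markers was higher. Of heart muscle markers 0 of 10 were called (limma, 1 at an unadjusted p below 0.05). The summed macrophage intensity of 11 genes was 20331 to 38946 with both tocopherols, 21718 to 37282 with alpha-tocopherol and 35365 to 43916 in old controls. For the 11 fibroblast genes the sums were 58582 to 92242, 63225 to 95499 and 81973 to 90771, and for the 9 endothelial genes 26951 to 31391, 25173 to 30499 and 30504 to 35906. Markers of liver, on the array as 7 genes, summed to 2736 to 4185 with both tocopherols, 2672.5 to 3414.3 with alpha-tocopherol and 4841 to 22938 in old controls. With age, beside the rises of Ccng1 and Ccnd1, 2 of 9 endothelial markers were higher and 0 lower, where 3.00% of all named genes were higher, and 0 of the other marker lists' tested genes were called (limma; 0 to 4 a list at an unadjusted p below 0.05). Endothelial sums were 30504 to 35906 in old and 24900 to 32352 in young controls. Macrophage sums were 35365 to 43916 in old controls, against 30067 to 35688 in 4 young controls and 45654 in young control 3. No marker of these lists was below 58 on all arrays. Their part in the member results was not tested.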

How the data were processed

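RNA from 20 hearts was hybridized to 1 oligonucleotide array per animal. Per the labels' protocols, the labelled target was biotinylated complementary RNA from polyadenylated RNA. The deposited table holds a linear intensity per probe set, from 0.4 to 275790. Sources used here name no array software. Averages over the middle of each array, with 2% trimmed at both ends, were 1501.0 to 1501.1, so the arrays had been scaled alike.

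Gene symbols were those of the platform annotation (10833 probe sets with 1 symbol, 396 with several, 1193 with none), of which 10817 matched RefSeq GRCm38.p6 and 0 changed. The pseudocount of 58 is the 10th percentile of all intensities, and no further scaling was done (medians of the arrays spanned 0.115 on the log2 scale). The 66 control probe sets and, by mean level, the dimmest 40% were not tested. A model with 4 group means was fitted in R 4.3.3 with limma 3.58.1, using the trend and robust options, and was tested on simulated data. A listed gene was represented by its brightest tested probe set. Named genes were all members, up to 2 called genes per direction, pathway list and comparison by smallest adjusted p, and the 2 genes most correlated with each called member. The members and lists were chosen with earlier results of these data known. Alternatives covered the pseudocount, filter, scaling, variance model, array weights, subsets of animals, a replicate block, covariates and leaving out each animal. Numbers in the labels do not pair animals.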

Additional observations from a re-analysis of the deposited data

Results flagged for a closer look

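In 5 of 44 groups of 5 hearts (11 member probe sets in 4 groups), 1 heart stood apart from the other 4, with a gap to its nearest neighbour above 0.71 of the group's whole range, both on the log2(intensity + 58) scale. Chance gives about 1 in 20 groups. Values are intensities. Ccng1 was lowest in animal 2 of the mice fed both tocopherols (4199.6) and in old control 4 (6146.8). Gadd45a was low in animal 4 of the mice fed both tocopherols (369.7), and the tested Gadd45b probe set in alpha-tocopherol animal 5 (202.0, where the gap is 0.68 of the range on the linear scale). The Cdkn1a probe set 94881_at was low in young control 5 (758.9).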

How the results depend on the processing

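Over 948 combinations of a tested member probe set, a comparison and an alternative, 867 kept direction and side of the threshold, 44 lost a call, 10 gained one and 27 changed sign, 0 of these with a call before or after. The cause of each change below was not tested. With alpha-tocopherol the 3 member calls became 0 with the hybridization covariate (limma; 3 at an unadjusted p below 0.05), and the 1619 calls over all probe sets became 144 with it, 142 with the 18S covariate and 981 without old controls 1 and 4. With both tocopherols the 2 member calls against old controls became 0 without a filter on dim signal, with the hybridization covariate, without old controls 1 and 4, and without young control 3 and old control 3. They became 1 with the dimmest 60% left out (Gadd45a was then not tested), without trend and robust options, and with the 18S covariate. They became 3 with only the 2 groups compared, which adds Pcna, and 4 with array weights, which add Pcna and Ccnd1 94232_at. Over all probe sets the 479 calls became 858 with array weights, 242 with the hybridization covariate and 162 without old controls 1 and 4. With age the 2 member calls stayed at 2 or 3, and the 368 over all became 731 with array weights and 150 without old controls 1 and 4. Between the supplements the 1 member call became 0 without a filter, without trend and robust options, with array weights, with only the 2 groups compared, with either covariate and without old controls 1 and 4. The 42 over all became 11 without a filter and also 11 without trend and robust options, 64 with the dimmest 60% left out, 23 with median centring, 7 with array weights and 79 without young control 3 and old control 3. They became 0 (limma) with only the 2 groups (1071 at an unadjusted p below 0.05), the hybridization covariate (820), the 18S covariate (587), and without old controls 1 and 4 (1102). With alpha-tocopherol the member calls were 4 with array weights and without young control 3 and old control 3, which add Cdkn1a. Leaving out 1 animal gave 3 to 4 member calls and 1179 to 1556 in all with alpha-tocopherol, 0 to 2 and 263 to 447 with both tocopherols, 2 to 3 and 258 to 367 with age, and 0 to 1 and 0 to 79 between the supplements (0 without animal 4 of the mice fed both tocopherols, with 960 at an unadjusted p below 0.05). With the replicate number as a block, members called were 2 with age, 3 with alpha-tocopherol, 2 with both tocopherols and 1 between the supplements, and 347, 1578, 451 and 34 over all. Same-numbered animals correlated at 0.04 to 0.10, -0.01 to 0.04, -0.05 to 0.05 and -0.08 to 0.02 in these comparisons, and 1, 1, 0 and 0 of 5 numbers correlated best with their own, so the numbers were not taken as pairs. The changes of sign were in 6 probe sets. With alpha-tocopherol the hybridization covariate gave -0.86 for Gadd45b, -0.29 and 0.11 for Ccnd1 (94231_at and 94232_at) and 0.22 for Mdm2, and the 18S covariate gave -0.86 for Ccnd2 and -0.0027 for Ccnd1 94231_at. That Ccnd1 probe set was also at -0.0016 with median centring, -0.021 with array weights and -0.025 without young control 3 and old control 3. Between the supplements Gadd45b was 0.16 with the hybridization covariate and Ccnd2 0.18 with the 18S covariate. Leaving out 1 animal gave, with alpha-tocopherol, -0.050 to 0.42 for Gadd45b, -0.077 to 0.11 for Ccnd1 94231_at, -0.0015 to 0.32 for Ccnd2 and -0.18 to 0.13 for Cdkn1a 98067_at. It gave -0.61 to 0.18 for Ccnd2 with both tocopherols, -0.75 to 0.042 for Ccnd2 between the supplements and -0.30 to 0.015 for Cdkn1a 98067_at with age. Gadd45b and Ccnd2 were the dimmest members by mean level, and the part of signal level in these changes was not tested.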
